A study of Mus musculus with 36 samples.

Results

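Genes of the unfolded protein response and the heat shock response were followed in the hippocampus of wild-type, Fmr1 knockout and Shank3 knockout mice given vehicle or cannabidiol (CBD). The 44 genes were listed by name from textbook knowledge, 25 that act in or signal from the endoplasmic reticulum (ER) and 19 that act in the cytosol or mitochondria. All 44 had at least 10 counts over the 36 libraries, out of 35500 identifiers with that many and 78298 in all. All 44 also passed the filter on low counts, so none is left out below. Each genotype, labelled WT, Fmr1-/- or Sko-/-, was given either treatment, and each of the 6 groups held 6 libraries from 3 males and 3 females. Injections were subcutaneous over 7 days, with CBD at 5 mg/kg in males and 50 mg/kg in females, so that sex and dose cannot be told apart in treated mice. Each library carried its own code and was taken as 1 animal. The codes of all Shank3 KO libraries began with SKO. Those of WT and Fmr1 KO libraries began with FMR, apart from WT CBD replicate 1, which began with CB. What these prefixes mark was not given, so genotype and prefix cannot be told apart between Shank3 KO and WT. Strain, age and the way either allele was made were not given in the sources used here, and neither was a cell type restriction of the knockouts. Fmr1 encodes the RNA-binding protein FMRP, which is lost in fragile X syndrome, and Shank3 encodes a scaffold protein of the postsynaptic density. CBD is a plant cannabinoid that does not intoxicate.

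Secreted and membrane proteins fold in the ER with the help of the chaperone BiP, encoded by Hspa5, of its partners, and of protein disulfide isomerases. When unfolded protein builds up there, the sensors IRE1 (Ern1), PERK (Eif2ak3) and ATF6 (Atf6) signal to the nucleus. IRE1 splices the Xbp1 message and PERK favours translation of Atf4, and the resulting factors raise chaperone and degradation genes. In the cytosol the factor HSF1 (Hsf1) does the same for HSP70, HSP90 and their co-chaperones. Neurons keep constitutive HSP70 and HSP90 proteins at high levels, while the inducible HSP70 genes Hspa1a and Hspa1b are low until stress. Both responses act in part through splicing, cleavage and phosphorylation, which gene counts do not show.

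The promoters of the ER chaperones are known for the ER stress element, and those of heat shock genes for the heat shock element. They were looked for in the 250 bases before each annotated start, from RefSeq promoters on build GRCm38.p6, an older build than the one the counts were made on. A promoter was at hand for 36 of the 44 genes, 22 of the ER and 14 of the cytosolic or mitochondrial set. The ER stress element was searched as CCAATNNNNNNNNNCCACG on both strands, and it was found in 37 of 32851 promoters of all genes, which is 0.113%. It was found in 7 of the 22 ER promoters, those of Hspa5, Hsp90b1, Pdia6, Calr, Canx, Dnajc3 and Creld2, and in 0 of the 14 others. The shorter ER stress element II, ATTGGNCCACG, was in 0.0304% of all promoters and in that of Herpud1 among the 36. The heat shock element, searched as GAANNTTCNNGAA or TTCNNGAANNTTC, was in 0.466% of all promoters and in those of Hspd1 and Hspe1, which share one stretch of DNA between their starts. TGACGTGG, bound by XBP1 and ATF6, was in 0.563% of all promoters and in none of the 36. TGATGNAA, the element bound by ATF4 with a partner, was in 3.45% of all promoters and only in that of Herpud1 among the 36, where it does not overlap the element in capitals. The sequences below are the promoters with a match to these elements, apart from Hspd1, whose matches are those shown under Hspe1 read on the other strand, since the chaperones that carry the ER stress element are taken up again under covariation. Capitals mark the ER stress element in the first 7, the ER stress element II in Herpud1 and 2 overlapping heat shock elements in Hspe1. Each is written 5′ to 3′ on the strand of its gene and, for the first 4 and the last 2, ends at the base before the start, and the other 3 are cut around the match. In Calr, in Creld2 and at the second match of Hsp90b1 the element reads on the opposite strand, so that the capitals show its reverse complement.
Hspa5 (chr2:34771840-34772089, + strand): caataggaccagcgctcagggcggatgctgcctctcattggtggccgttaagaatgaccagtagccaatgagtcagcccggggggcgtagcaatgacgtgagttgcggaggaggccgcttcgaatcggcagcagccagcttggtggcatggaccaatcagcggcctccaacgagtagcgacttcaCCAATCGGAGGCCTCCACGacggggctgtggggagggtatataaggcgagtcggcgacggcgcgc
Pdia6 (chr12:17266339-17266588, + strand): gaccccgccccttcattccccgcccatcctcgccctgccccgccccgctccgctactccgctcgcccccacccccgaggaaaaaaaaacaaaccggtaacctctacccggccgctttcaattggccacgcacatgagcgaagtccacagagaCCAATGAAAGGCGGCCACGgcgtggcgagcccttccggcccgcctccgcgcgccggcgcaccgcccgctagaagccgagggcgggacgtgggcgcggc
Calr (chr8:84846932-84847181, - strand): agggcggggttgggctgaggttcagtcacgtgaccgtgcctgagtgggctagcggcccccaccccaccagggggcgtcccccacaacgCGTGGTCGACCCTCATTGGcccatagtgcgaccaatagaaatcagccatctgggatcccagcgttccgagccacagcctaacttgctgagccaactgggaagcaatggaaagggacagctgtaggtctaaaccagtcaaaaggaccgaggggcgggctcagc
Hsp90b1 (chr10:86705445-86705694, - strand): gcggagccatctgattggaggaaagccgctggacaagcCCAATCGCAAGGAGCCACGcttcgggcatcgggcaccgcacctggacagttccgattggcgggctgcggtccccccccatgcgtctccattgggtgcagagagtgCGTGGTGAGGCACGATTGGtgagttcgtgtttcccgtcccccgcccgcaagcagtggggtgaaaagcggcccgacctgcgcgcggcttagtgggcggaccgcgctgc
Canx (chr11:50325790-50325828, - strand): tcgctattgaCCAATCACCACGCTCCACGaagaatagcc
Dnajc3 (chr14:118937817-118937855, + strand): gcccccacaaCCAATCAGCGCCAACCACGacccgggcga
Creld2 (chr15:88819510-88819548, + strand): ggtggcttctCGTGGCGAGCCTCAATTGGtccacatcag
Herpud1 (chr8:94386179-94386428, + strand): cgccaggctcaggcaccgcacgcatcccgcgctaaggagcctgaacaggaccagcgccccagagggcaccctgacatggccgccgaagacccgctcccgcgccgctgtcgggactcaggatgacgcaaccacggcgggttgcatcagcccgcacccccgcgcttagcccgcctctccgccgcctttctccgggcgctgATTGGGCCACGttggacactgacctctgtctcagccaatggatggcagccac
Hspe1 (chr1:55087898-55088147, + strand): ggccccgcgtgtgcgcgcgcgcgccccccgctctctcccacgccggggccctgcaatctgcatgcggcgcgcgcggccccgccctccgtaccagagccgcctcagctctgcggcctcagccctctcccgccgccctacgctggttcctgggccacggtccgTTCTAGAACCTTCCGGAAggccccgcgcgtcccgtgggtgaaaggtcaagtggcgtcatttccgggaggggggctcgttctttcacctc
In Hspa5 the match began at position -65, counted back from the start, in Pdia6 at -98, in Calr at -162, and in Hsp90b1 at both -212 and -107. In Canx it began at -145, in Dnajc3 at -105, in Creld2 at -126 and in Herpud1 at -52. A match is a run of letters, not a measured binding site.

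Total counts per library ran from 11655697 to 33228089, with a median of 26717940. Levels are given as CPM, counts scaled to a common library total, with the standard deviation (SD) over the 6 libraries of a group, and fold changes are on the log2 scale with a standard error (SE). The deposited gene lengths matched the whole gene span within 5% for 98.1% of protein-coding genes rich in introns. They matched the joined exons within 5% for 0.006% of them. The lengths are thus those of whole genes, and counting with introns included is possible but was not tested. CPM may therefore not be levels of spliced message alone. The targeted genes followed the labels: Fmr1 was at 73.9 ± 4.86 CPM in WT vehicle and 41.1 ± 2.89 in Fmr1 KO vehicle, and Shank3 was at 265 ± 19.5 in WT vehicle and 168 ± 8.75 in Shank3 KO vehicle. Hippocampal markers were present in every library, with mean log2 CPM of 3.46 to 4.93 for 8 CA3 genes and 3.42 to 6.64 for 10 dentate genes. Tissue from beside the hippocampus varied more. The mean over 8 choroid plexus markers ran from -0.88 to 5.71, at or below 2.25 in 15 libraries and at or above 3.08 in 21, and the mean over 9 striatal markers passed 3 in 7 libraries against a median of 1.79. The mean over 8 thalamic markers ran from 3.555 to 6.64, median 4.07. Shank3 KO vehicle replicate 1 at 6.23 and WT vehicle replicate 1 at 5.67 were high in it but not among those 7, so fits without the 7 still hold them. Fmr1 KO CBD replicate 3 was the lowest library for the CA3, dentate and 10 oligodendrocyte markers. It stood at 3.46, 3.42 and 4.53, against medians of 4.495, 5.97 and 6.75. Its striatal mean of 2.86 left it outside those 7 libraries. Of all 36 libraries it was also the lowest in Atf6, Ern1, Bag3 and Cryab. In whole tissue, fewer cells of a type and less RNA per cell cannot be told apart.

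The ER chaperones are described first, with levels in CPM. Hspa5, which encodes BiP, ranged from 104 to 156 CPM in WT vehicle with a median of 148, and from 94.6 to 162 in WT CBD with a median of 132. In Fmr1 KO it ranged from 95.9 to 143 under vehicle, median 119, and from 90 to 159 under CBD, median 140. In Shank3 KO it ranged from 105 to 169 under vehicle, median 134, and from 91.2 to 150 under CBD, median 122. All 6 groups overlapped widely, and the spread within a group was larger than the distance between the medians. Calr, the calcium-binding lectin chaperone calreticulin, averaged 184 CPM over all libraries, its membrane-bound partner Canx 154 and Sel1l, a scaffold of ER-associated degradation, 193. Hsp90b1, the HSP90 of the ER, averaged 109 CPM, and the disulfide isomerases Pdia3, Pdia6 and Pdia4 averaged 116, 56.5 and 39.2. The BiP exchange factor Hyou1 averaged 91.7 CPM, the J protein Dnajc3 64.4, and the secreted stress protein Manf 19.3. Dnajb11, Creld2 and Sdf2l1, further partners of BiP or of its clients, averaged 8.53, 7.01 and 3.57 CPM.

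Of the sensors, Atf6 averaged 155 CPM, Eif2ak3 30 and Ern1 28.7. Among the transcription factors that they feed, Atf4 averaged 40.9 CPM, Xbp1 39.1 and the pro-apoptotic Ddit3 (CHOP) 6.05. Trib3, a pseudokinase target of ATF4 and CHOP, was at 0.291 CPM, and Ppp1r15a, which reverses the block on translation, was at 4.10. Xbp1 had group medians from 34.2 CPM in Shank3 KO CBD to 41.4 in WT vehicle, Atf4 from 37.3 in Fmr1 KO vehicle to 41.5 in WT CBD, and Ddit3 from 5.46 in Shank3 KO vehicle to 6.38 in WT vehicle. In the degradation arm, Edem1 averaged 27.6 CPM and Herpud1 25.7, and the J protein Dnajb9 averaged 27.1.

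In the cytosol, the constitutive HSP70 gene Hspa8 averaged 802 CPM. It ranged from 729 to 985 CPM in WT vehicle, median 804, and from 709 to 837 in WT CBD, median 757. In Fmr1 KO it ranged from 676 to 885 under vehicle, median 806, and from 750 to 928 under CBD, median 850. In Shank3 KO it ranged from 764 to 928 under vehicle, median 816, and from 731 to 917 under CBD, median 739, where 5 libraries lay at or below 748. All of these ranges overlapped. The constitutive HSP90 gene Hsp90ab1 averaged 526 CPM and the inducible Hsp90aa1 93.7. The inducible HSP70 genes Hspa1b and Hspa1a averaged 5.92 and 1.25 CPM, and both values are uncertain because reads shared by this near-identical pair may be split or dropped in counting. Hspa4 and Hspa4l, of the HSP110 exchange factor family, were at 182 and 169 CPM and their relative Hsph1 at 83.9. Of the J proteins, Dnaja1 was at 122 CPM and Dnajb1 at 25.8, and of the co-chaperones Chordc1 was at 84.2, Ahsa1 at 40.5, Stip1 at 25.7 and Bag3 at 8.52. The factor gene Hsf1 averaged 30.8 CPM, with group medians from 29.6 in Fmr1 KO vehicle to 31.9 in WT vehicle. The group medians of Hsp90aa1 ran from 86.9 CPM in WT CBD to 108 in Fmr1 KO CBD and those of Hspa1b from 5.05 to 6.69 in the same groups. The mitochondrial chaperonin Hspd1 and its partner Hspe1 were at 86.0 and 19.3 CPM. Levels of different genes are compared only per kilobase of gene span. On that scale Hsp90ab1 was the highest of the 44 at 95.7 CPM, ahead of Hspa8 at 88.1, Calr at 36.2, Hspa5 at 23.3 and Atf4 at 17.3. Hsp90aa1 stood at 7.73 CPM per kilobase, Hspa1b at 2.11 and Hspa1a at 0.422, and the lowest were Manf at 0.360, Ern1 at 0.308 and Trib3 at 0.0440. Long introns lower the value per kilobase, so it orders these genes only roughly.

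Over all 44 genes, the highest and the lowest group mean lay between 0.07 apart on the log2 scale, for Sel1l, and 0.82 apart, for Hspb1, whose group means were lowest in Fmr1 KO vehicle and highest in Shank3 KO CBD.

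**Figure D1:**
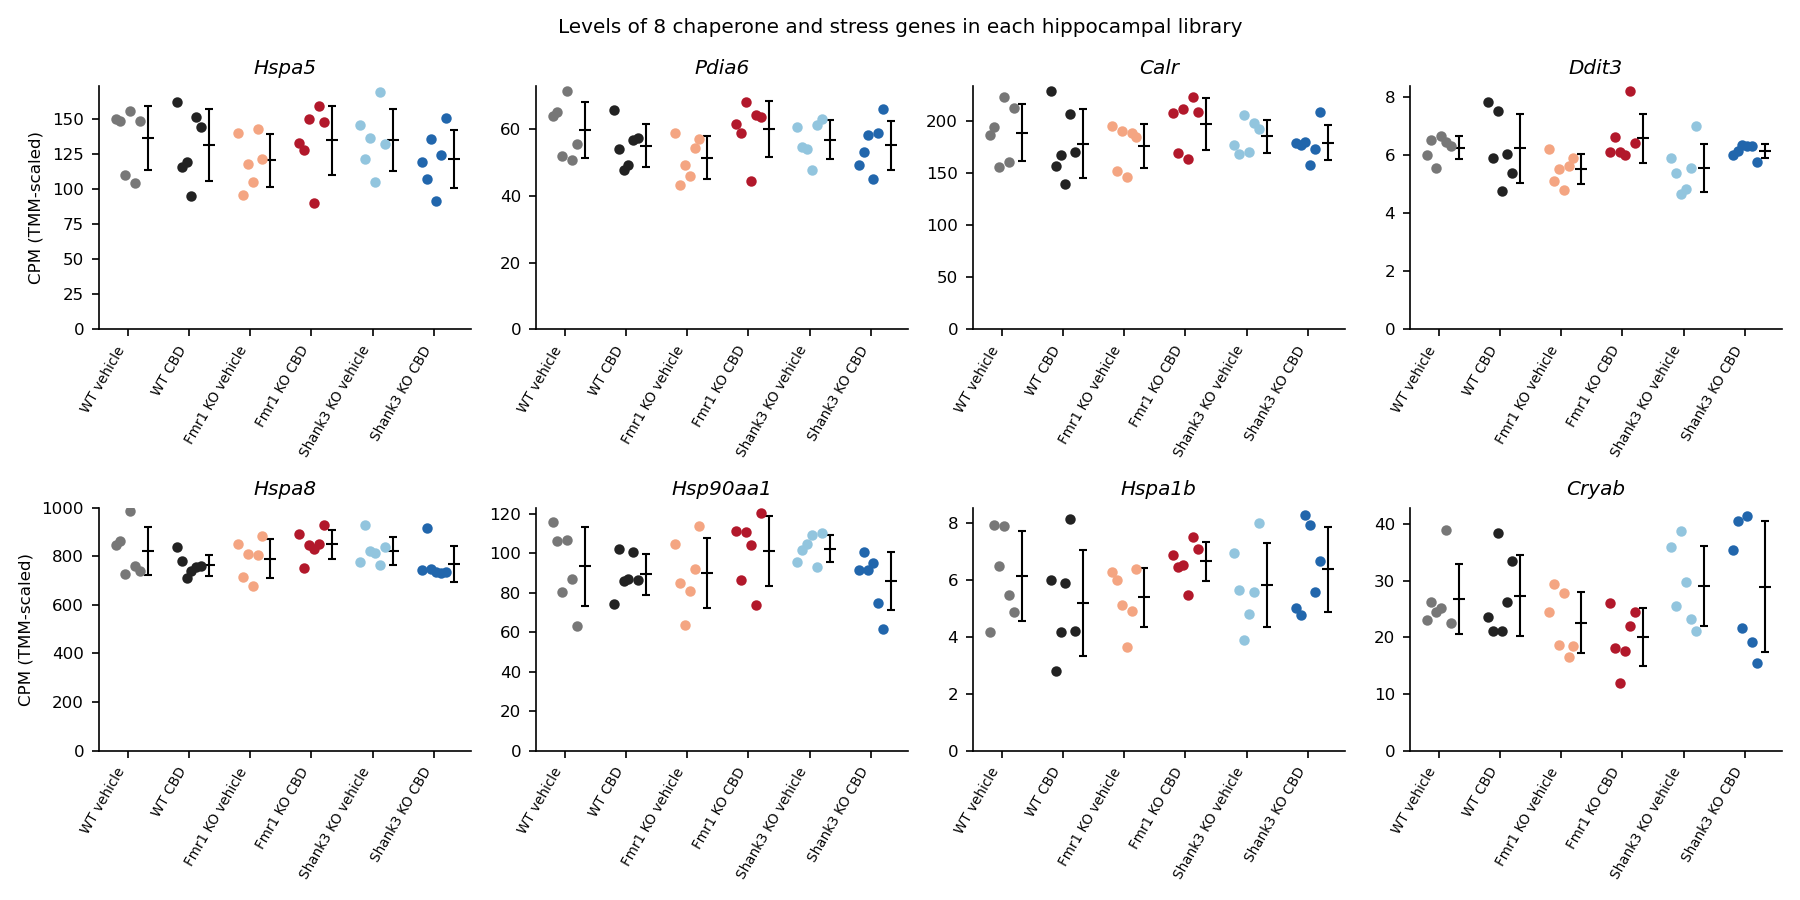
CPM of 8 of the genes in the 6 groups (x axis) on separate y axes, with 1 point per library and the group mean with its SD. The groups overlap in every panel; Hspa5 runs from 90 to 169 CPM and Hspa8 from 676 to 985 over all libraries.

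Animals of the same group differed less in most of these genes than in the typical gene. Most of these genes also had a mean level above the median of all genes tested, from percentile 4.3 for Trib3 to 99.3 for Hspa8. Their spread was not compared with that of genes of like level, so the part of level in this difference was not tested. The SD of log2 CPM around the group means had a median of 0.187 over the 25 ER genes and 0.169 over the 19 others, against 0.317 over all 21172 genes tested and 0.244 over the 15799 genes with a mean of at least 1 CPM. Eif2ak3 was the steadiest at 0.0884, percentile 1.95 among all genes tested, and it ranged only from 26.9 to 34.4 CPM over the 36 libraries. Hspa4, Hsph1 and the J protein Dnaja1 followed at 0.110, 0.112 and 0.116. At the other end, Trib3 had an SD of 0.621, at a level where few counts limit the precision, and the small heat shock gene Hspb1 one of 0.478 at 2.05 CPM. Cryab, the small heat shock protein alpha-B crystallin, varied by 0.407 although its mean was 25.8 CPM, from 12 to 41.5 CPM. Hspa5 stood at 0.261, percentile 40.9, which made it more variable between animals than Hsp90b1 at 0.158 or Pdia3 at 0.145.

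**Figure D2:**
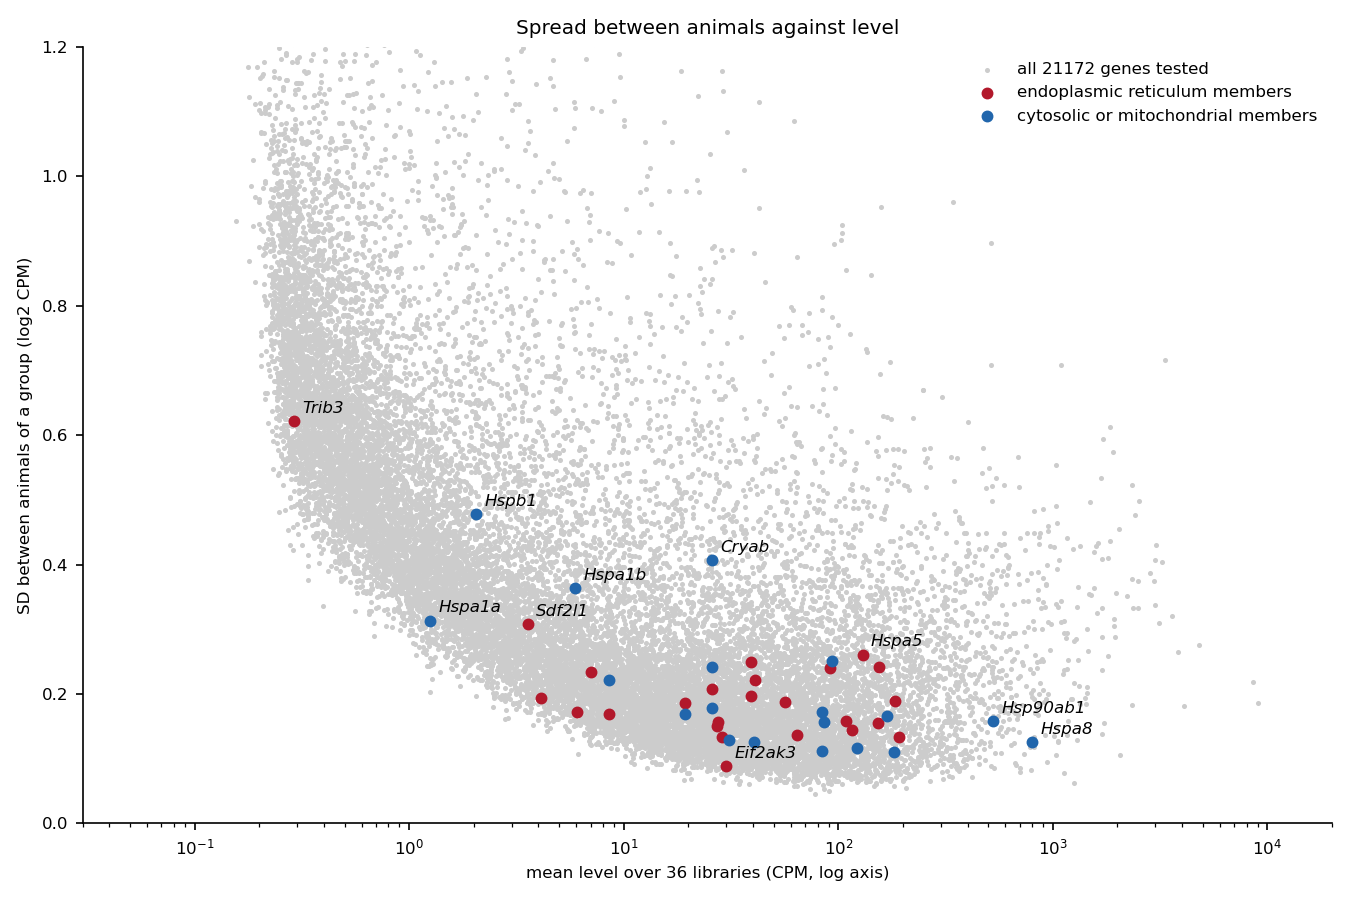
SD of log2 CPM between animals around their group means (y axis) against mean CPM on a log axis (x axis). All genes tested are in grey and the 44 genes in colour by compartment. The y axis ends at 1.2, which leaves 338 genes out of view; Eif2ak3 lies near the lower edge at 0.0884, and Cryab, Hspb1 and Trib3 stand highest among the 44.

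No gene of the 44 separated Fmr1 KO from WT hippocampus under vehicle. edgeR's quasi-likelihood test called 0 of the 44 at a Benjamini-Hochberg adjusted p under 0.05, where 6 of all genes were called (0.0283%), and 1 at an unadjusted p under 0.05, where 2.24% of all genes stood. DESeq2 and limma voom also called 0 of the 44 here and in each of the comparisons that follow. Here and below, limma voom was run with sample quality weights, which give atypical libraries less weight. The gene with an unadjusted p under 0.05 was the disulfide isomerase Pdia6. It ranged from 50.8 to 71.6 CPM in WT vehicle, median 59.8, and from 43.2 to 59.0 in Fmr1 KO vehicle, median 52.0. The ranges overlapped, with the 3 lowest Fmr1 KO libraries below every WT library, and the log2 fold change was -0.21 (SE 0.10, adjusted p = 1 by edgeR). Other ER chaperone genes had estimates of like size, which their SE does not set apart from 0. Creld2 differed by -0.25 (SE 0.14), Manf by -0.19 (SE 0.11) and Hspa5 by -0.18 (SE 0.14). Hsph1, an exchange factor of HSP70, differed by -0.12 (SE 0.07), Hspb1 by -0.45 (SE 0.27) and Hsf1 by -0.13 (SE 0.08). The transcription factor genes stood at -0.18 for Ddit3, -0.08 for Atf4 and -0.09 for Xbp1, and the HSP70 and HSP90 genes at -0.28 for Hspa1a, -0.05 for Hspa8 and -0.07 for Hsp90aa1. The estimates lay below 0 for 19 of 25 ER genes and 17 of 19 others, with 6 and 2 above it against 50.5% of all genes. Their medians were -0.09 and -0.07 on the log2 scale against 0.00 over all genes. The 95% interval lay within a 1.5-fold difference in either direction for 39 of the 44, all but Trib3, Hspb1, Cryab, Hspa1b and Hspa1a.

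Under CBD the same genotype contrast called 0 of the 44 (0.0331% of all genes called), and 3 stood at an unadjusted p under 0.05 (7.4% of all genes). Cryab ranged from 21.2 to 38.5 CPM in WT CBD, median 25.0, and from 12 to 26.1 in Fmr1 KO CBD, median 20.1. The groups overlapped, and the log2 fold change was -0.46 (SE 0.22, adjusted p = 0.673 by edgeR). Without the 7 libraries rich in striatal markers it was -0.23. The oligodendrocyte marker score reached 7.58 in WT CBD but at most 6.77 in Fmr1 KO CBD. Its lowest library there was replicate 3 at 4.53, which also held the lowest Cryab and Bag3. The part of this score in the difference was not tested. Bag3, a co-chaperone of HSP70 in autophagy, differed by -0.28 (SE 0.13) and Ahsa1, an activator of HSP90, by 0.16 (SE 0.08), with adjusted p of 0.660 and 0.668 by edgeR. Among the ER genes, the smallest p values belonged to Ern1 at -0.14 (SE 0.08), Calr at 0.15 (SE 0.10) and Pdia6 at 0.13 (SE 0.10). Hspa8 differed by 0.15, Hsp90aa1 by 0.17, Hspa5 by 0.04, Ddit3 by 0.08, Atf4 by 0.08, Xbp1 by 0.07, Hspa1a by 0.02 and Hsf1 by -0.07. The estimates were above 0 for 14 of 25 ER genes and 13 of 19 others (50.1% of all genes), with medians of 0.01 and 0.09; the first turned to -0.03 with limma voom and to -0.01 at its lowest when 1 library was left out.

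No gene of the 44 separated Shank3 KO from WT hippocampus either. None was called under vehicle (0.0378% of all genes called) or under CBD (0.0425%), by edgeR, DESeq2 or limma, and none had an unadjusted p under 0.05, against 5.63% and 1.65% of all genes. Edem1, a mannosidase-like protein of ER-associated degradation, ranged from 22.2 to 28.8 CPM in WT vehicle, median 25.3, and from 25.1 to 36.3 in Shank3 KO vehicle, median 27.3. These ranges overlapped, with a log2 fold change of 0.16 (SE 0.09, adjusted p = 0.853 by edgeR). Ddit3 differed by -0.17 (SE 0.11), Atf4 by -0.16 (SE 0.13), Hsf1 by -0.12 (SE 0.08), the J protein Dnajb1 by -0.17 (SE 0.13) and Hsp90aa1 by 0.13 (SE 0.13). Hspa5 differed by -0.02, Xbp1 by -0.15, Hspa1a by -0.16 and Hspa8 by 0.00. Without the 7 libraries rich in striatal markers, of which 3 are Shank3 KO vehicle libraries, Hspa5 stood at 0.16, Ddit3 at -0.015, Hsf1 at -0.018 and Hspa1a at -0.43. Under CBD the smallest p values belonged to Dnajb9 at -0.10, Pdia3 at -0.09, Hsp90b1 at -0.09, Hspa4l at -0.17, Hspa1b at 0.28 and Dnaja1 at -0.06. Hspa5 then differed by -0.10, Hspa1a by -0.13, Hsp90aa1 by -0.06, Hspa8 by 0.01, Hsf1 by -0.01, and Atf4, Xbp1 and Ddit3 by -0.02 each. Under vehicle 7 ER genes and 10 others had estimates above 0 (49.9% of all genes), and under CBD the numbers were again 7 and 10 (47.7%). The interval lay within 1.5-fold for 42 of the 44 in either comparison. No WT library shares the code prefix of the Shank3 KO libraries, so both comparisons mix genotype with whatever the prefix marks.

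CBD in WT mice left no called gene among the 44, as in the whole table (0% of all genes), and none at an unadjusted p under 0.05 (2.68% of all genes). Edem1 ranged from 22.2 to 28.8 CPM under vehicle and from 24.1 to 33.4 under CBD, with medians of 25.3 and 29.1. These overlap, and the log2 fold change of 0.17 (SE 0.09) had an adjusted p of 1 by edgeR. Creld2 differed by -0.23 (SE 0.14), Ern1 by 0.11 (SE 0.08), Hspa8 by -0.10 (SE 0.08), Dnaja1 by -0.08 (SE 0.07) and Hspa1b by -0.23 (SE 0.20). Hspa5 differed by -0.07, Xbp1 by -0.15, Atf4 by -0.07, Ddit3 by -0.01, Hspa1a by -0.12, Hsp90aa1 by -0.07 and Hsf1 by -0.05. Estimates were above 0 for 7 of 25 ER genes and 5 of 19 others (52.6% of all genes), with medians of -0.03 and -0.07. The interval lay within 1.5-fold for 41 of the 44.

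CBD in Fmr1 KO mice likewise left 0 of the 44 called (0% of all genes), and Ddit3 and Pdia6 stood at an unadjusted p under 0.05 (2.64% of all genes). Pdia6 ranged from 43.2 to 59.0 CPM under vehicle, median 52.0, and from 44.4 to 68.2 under CBD, median 62.8. Of the 6 CBD libraries 4 lay above every vehicle library and 1 lay near the bottom of the vehicle range. The log2 fold change was 0.22 (SE 0.10, adjusted p = 1 by edgeR), and 0.11 with limma voom. This contrast and the Fmr1 KO contrast under vehicle share the 6 Fmr1 KO vehicle libraries, in which Pdia6 averaged 51.5 ± 6.36 CPM against 59.9 ± 8.30 in WT vehicle and 60.2 ± 8.32 in Fmr1 KO CBD. Ddit3 ranged from 4.79 to 6.21 CPM under vehicle, median 5.58, and from 6 to 8.21 under CBD, median 6.27. Its groups overlapped at the edge, where 1 vehicle library lay above the 3 lowest CBD libraries, and its log2 fold change was 0.25 (SE 0.11, adjusted p = 1 by edgeR). Calr differed by 0.16 (SE 0.10), Ahsa1 by 0.15 (SE 0.08), Dnajb1 by 0.23 (SE 0.13) and Hspd1 by 0.15 (SE 0.09). Hspa5 differed by 0.16 (SE 0.14), or -0.0039 with limma voom, Xbp1 by 0.01, Atf4 by 0.10, Hspa1a by 0.17, Hspa8 by 0.10, Hsp90aa1 by 0.17 and Hsf1 by 0.00. Estimates were above 0 for 18 of 25 ER genes and 18 of 19 others (51.7% of all genes), with medians of 0.07 and 0.09 against 0.01 over all genes. With limma voom the ER median was -0.01, and without Fmr1 KO vehicle replicate 4 the medians were 0.02 and 0.05. The single cytosolic gene below 0 was Cryab at -0.17.

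The CBD effect in Fmr1 KO minus that in WT was tested directly. It called 0 of the 44 (0% of all genes), and only Pdia6 had an unadjusted p under 0.05 (3% of all genes), at 0.34 on the log2 scale (SE 0.14, 95% interval 0.05 to 0.63, adjusted p = 0.993 by edgeR). Hspa1b stood at 0.54 (SE 0.29), Dnajb1 at 0.34 (SE 0.18), Hspa8 at 0.21 (SE 0.12), Edem1 at -0.24 (SE 0.13) and Ern1 at -0.20 (SE 0.11). Hspa5 stood at 0.22, Ddit3 at 0.26, Atf4 at 0.16, Xbp1 at 0.16, Hspa1a at 0.30, Hsp90aa1 at 0.24 and Hsf1 at 0.05. In all, 19 ER genes and 15 others had estimates above 0 (48.9% of all genes). A difference of differences is less precise: the interval lay within 1.5-fold for 32 of the 44.

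CBD in Shank3 KO mice called 0 of the 44 (0% of all genes), and Dnaja1 and Hsp90b1 had an unadjusted p under 0.05 (4.41% of all genes). Dnaja1 ranged from 122 to 131 CPM under vehicle, median 127, and from 104 to 123 under CBD, median 113. The ranges touched only between 122 and 123, and the log2 fold change was -0.16 (SE 0.07, adjusted p = 0.964 by edgeR). Hsp90b1 ranged from 102 to 129 CPM under vehicle, median 120, and from 92.5 to 112 under CBD, median 105. It overlapped, with a log2 fold change of -0.19 (SE 0.09, adjusted p = 0.964 by edgeR). Hsp90aa1 differed by -0.26 (SE 0.13), Hspa4l by -0.19 (SE 0.10), Pdia3 by -0.14 (SE 0.08) and Dnajb9, a J protein of BiP, by -0.13 (SE 0.09). Hspa5 differed by -0.15, Xbp1 by -0.02, Atf4 by 0.07, Ddit3 by 0.15, Hspa1a by -0.10, Hspa8 by -0.10 and Hsf1 by 0.06. Without the 7 libraries rich in striatal markers Ddit3 stood at 0.00, Hsf1 at -0.03 and Hspa1a at 0.23. Estimates were above 0 for 8 of 25 ER genes and 6 of 19 others (50% of all genes). The Shank3 KO effect minus the WT effect called 0 of the 44 (0% of all genes), with none at an unadjusted p under 0.05 (4.74%) and 13 and 9 estimates above 0 (48.9%). Its smallest p values belonged to Edem1 at -0.24, Dnajc3 at -0.14, Hsp90b1 at -0.15, Hspa4l at -0.24, Hspa1b at 0.37 and Chordc1, an HSP90 co-chaperone, at -0.15. In that difference Hspa5 stood at -0.09, Ddit3 at 0.15, Atf4 at 0.14, Xbp1 at 0.13, Hspa1a at 0.03 (0.33 without the 7 libraries), Hspa8 at 0.01, Hsp90aa1 at -0.19 and Hsf1 at 0.11.

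**Figure D3:**
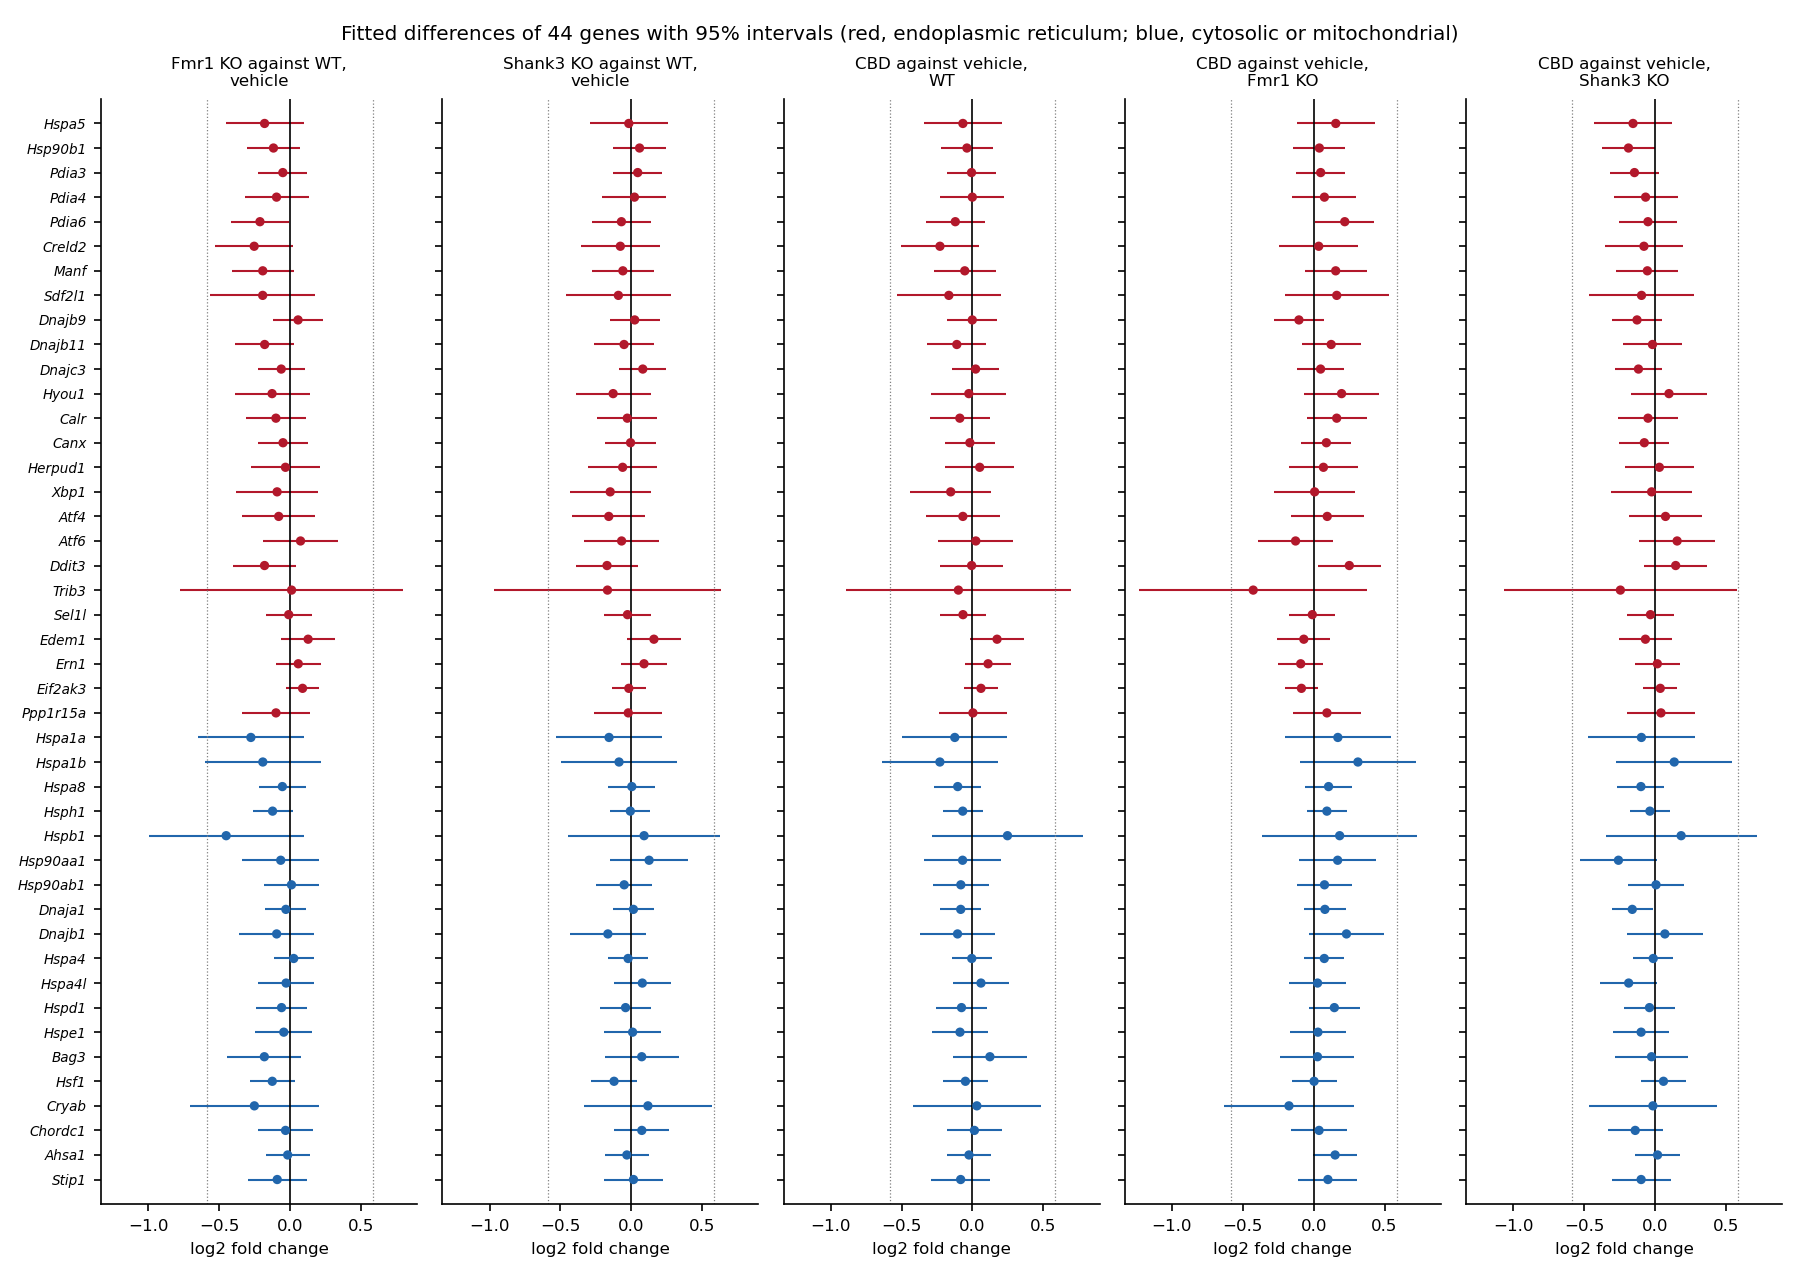
Log2 fold change (x axis) with its 95% interval for each of the 44 genes (y axis) in 5 comparisons, 1 panel each; dotted lines mark a 1.5-fold difference either way. For Fmr1 KO against WT under vehicle 36 of 44 points lie left of 0, where 50.5% of all genes lie right of it. For CBD in Fmr1 KO 36 of 44 lie right of 0, as do 51.7% of all genes. Both comparisons use the same 6 Fmr1 KO vehicle libraries, so the 2 counts are not independent. Trib3 and Hspb1 have the widest intervals.

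Averaged over the 3 genotypes, CBD called 0 of the 44 (0.0189% of all genes), and only Ddit3 had an unadjusted p under 0.05 (3.16% of all genes), at 0.13 (SE 0.06, adjusted p = 1 by edgeR), or 0.05 without the 7 libraries rich in striatal markers. Dnajb9 stood at -0.08 (SE 0.05), Hyou1 at 0.09 (SE 0.08), Hspb1 at 0.20 (SE 0.15; 0.03 without those 7), Dnaja1 at -0.05 (SE 0.04) and Ahsa1 at 0.05 (SE 0.04). Hspa5 stood at -0.02, Xbp1 at -0.06, Atf4 at 0.03, Hspa1a at -0.02, Hspa8 at -0.03, Hsp90aa1 at -0.05 and Hsf1 at 0.00. With 13 ER genes and 9 others above 0 (54.3% of all genes), 43 of the 44 intervals lay within 1.5-fold, the exception being Trib3. Like each contrast of CBD within a genotype, this average over 18 libraries a side mixes the male and the female dose. It bounds an effect shared by genotypes, sexes and doses more tightly than any single genotype does. Effects of opposite sign in males and females would cancel in it, so it does not bound the effect of either dose.

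CBD was also compared with vehicle within each sex, and so within each dose. In males CBD called 0 of the 44 (0% of all genes) and 3 had an unadjusted p under 0.05 (6.96% of all genes); in females it called 0 (0.0134%) and none had one (3.17%). Hyou1 ranged from 66.5 to 110 CPM in 9 vehicle males, median 91.6, and from 81.1 to 133 in 9 CBD males, median 95.5. In females it ranged from 72.8 to 106 under vehicle, median 86.8, and from 74.0 to 99.9 under CBD, median 84.7. All 4 sets overlapped. The highest values belonged to CBD males, with WT replicate 1 at 133, Shank3 KO replicate 6 at 131 and Fmr1 KO replicate 5 at 130. The other CBD males lay at or below 107. The log2 effect was 0.26 in males (SE 0.11, adjusted p = 0.713 by edgeR), and the effect in males minus that in females was 0.34 (SE 0.15, adjusted p = 0.666 by edgeR); with limma voom the effect in males was 0.15. Chordc1 averaged 86.2 ± 11.2 CPM in vehicle and 77.1 ± 7.59 in CBD males, and 83.8 ± 6.22 in vehicle and 89.9 ± 9.26 in CBD females (n = 9 each). Its ranges overlapped in both sexes, and its effect was -0.16 in males (SE 0.07) and 0.10 in females (SE 0.07), a difference of -0.26 (SE 0.11, adjusted p = 0.666 by edgeR). Among CBD males, Chordc1 was lowest in the libraries named for Hyou1, at 65.7, 71.1 and 66.7 CPM in that order. The effects of Hyou1 and Chordc1 in males thus lean on the same libraries. Among them, WT CBD replicate 1 is the library whose code began with CB, unlike the rest of its group. Ddit3 averaged 5.63 ± 0.669 CPM in vehicle and 6.49 ± 0.938 in CBD males, an effect of 0.21 (SE 0.09). Of the other genes in males, Pdia6 stood at 0.12, Hspa1b at 0.27, Dnajb1 at 0.16, Hspa5 at 0.09, Xbp1 at 0.06, Atf4 at 0.13, Hspa1a at -0.07 (0.11 without the 7 libraries rich in striatal markers), Hspa8 at -0.04, Hsp90aa1 at -0.13 and Hsf1 at 0.02. In females, Sel1l stood at -0.11, Xbp1 at -0.17, Ern1 at 0.08, Hspb1 at 0.28 (0.51 without Fmr1 KO vehicle replicate 1), Hsp90ab1 at -0.09, Hspa5 at -0.13, Ddit3 at 0.05 (-0.05 without those 7), Atf4 at -0.06, Hspa1a at 0.06, Hspa8 at -0.03, Hsp90aa1 at 0.03 and Hsf1 at -0.01. The counts above 0 were 17 ER genes and 8 others in males (52.5% of all genes) and 6 and 11 in females (49.6%).

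The direct test of males minus females called 0 of the 44 (0% of all genes), with 2 at an unadjusted p under 0.05 (7.31% of all genes), Hyou1 and Chordc1, and 16 ER genes and 7 others above 0 (50.9%). Beside those 2, Pdia6 stood at 0.21, Hspa1b at 0.41, Hsp90ab1 at 0.18 and Ern1 at -0.14. Between vehicle-treated males and females 0 of the 44 were called (0.0314% of all genes) and 1 had an unadjusted p under 0.05 (2.86% of all genes). That gene, Hspa1b, averaged 5.14 ± 1.27 CPM in males and 6.41 ± 1.13 in females, with overlapping ranges and a log2 difference of -0.33 (SE 0.16, adjusted p = 1 by edgeR). Hsp90ab1 differed by -0.10, Hspa1a by -0.17, Hsp90b1 by 0.09, Ddit3 by -0.08 and Canx by 0.06, and 12 ER genes and 10 others were above 0 (50%). Over all 14 comparisons, 16 of 616 values for the 44 genes had an unadjusted p under 0.05, which is 2.6%, against 4.15% of the values of all genes, and the smallest adjusted p was 0.66.

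Other genes of the same pathways were taken from lists of sensors, ER folding, translocation and degradation factors, ATF4 targets, further chaperones and HSP90 co-chaperones. Of 217 such genes, 196 were tested in the model with a sex term and 197 in the model by sex, and 0 were called in any of the 14 comparisons. Counts of these genes above 0 ran both ways, beside 47.7% to 54.3% of all genes above 0. In Fmr1 KO against WT under vehicle 84 of 196 were above 0 with a median of -0.01, and the smallest p belonged to Mbtps2, which encodes the protease that cleaves ATF6 in the membrane, at 0.17 (SE 0.08). CBD in WT mice had 65 of 196 above 0, median -0.03, led by the eIF2alpha kinase gene Eif2ak2 at 0.22 (SE 0.11). CBD in Fmr1 KO mice had 138 of 196 above 0, median 0.04, led by the stress-induced factor Atf5 at 0.31 (SE 0.15). Fmr1 KO against WT under CBD also had 138 above 0, median 0.06, led by Hspa2 at 0.41 (SE 0.14). Shank3 KO against WT had 67 above 0 under vehicle, median -0.04, led by Dnaja4 at -0.25 (SE 0.09), and 105 under CBD, median 0.00, led by the serine synthesis gene Psph at 0.27 (SE 0.09). CBD in Shank3 KO mice had 105 above 0 and CBD averaged over genotypes 109. Fkbp5, an HSP90 co-chaperone known as a target of the glucocorticoid receptor, had the smallest p for CBD in Shank3 KO at 0.32 (SE 0.11), for CBD averaged over genotypes at 0.20 (SE 0.07, adjusted p = 1 by edgeR), and between vehicle-treated males and females at -0.25 (SE 0.10). Ddit4, an ATF4 target that restrains mTORC1, led in CBD males at 0.38 (SE 0.13) and Pdia5 in CBD females at 0.26 (SE 0.11), with 131 and 68 of 197 genes above 0. For the differences of effects the leading genes were Srp14 in Fmr1 KO at 0.34 (SE 0.13), Bag2 in Shank3 KO at 0.65 (SE 0.24) and Clpp between the sexes at 0.30 (SE 0.12), with 139 and 117 of 196 and 132 of 197 above 0. Between vehicle-treated males and females 71 of 197 were above 0.

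Between animals of the same group, some of the ER chaperones varied together with Hspa5 and others did not. Each gene's log2 CPM was taken as its deviation from the group mean, and over 36 libraries Hspa5 was correlated with Pdia6 at r = 0.878 (Spearman's rho = 0.819), the highest of all 21171 other genes tested. The next were Pdia3 at 0.850, Calr at 0.847, Manf at 0.842 and Pdia4 at 0.789, and Hsp90b1 ranked 7th at 0.751, so that 6 of the 7 genes closest to Hspa5 were on the list of 44. Hyou1 followed at 0.693 (rank 25), Canx at 0.686 (rank 29) and Xbp1 at 0.670 (rank 37). Other partners of BiP were less closely tied to it, with Dnajc3 at 0.572, Sdf2l1 at 0.447, Dnajb11 at 0.362, Dnajb9 at 0.158 and Creld2 at 0.0813. Over all 300 ER pairs the median r was 0.225. For Hspa5 and Pdia6 the p from 100000 permutations within groups was 1e-05, the smallest they can give, and 0.000338 after Benjamini-Hochberg adjustment over 946 pairs. Leaving out the 2 libraries farthest from the median of Hspa5 gave r = 0.859. Here r was 0.958 in the 15 libraries low in choroid plexus markers, 0.784 in the 21 high ones and 0.892 with group and sex both removed. Of the 946 pairs 180 had an adjusted permutation p under 0.05, 17 of them negative. The share over pairs of all genes was not computed, so this count does not show covariation particular to the 44. Genes outside the list also reached high values, as Cs did with Hyou1 at 0.926. Genes are not independent replicates, and all pairs share the same libraries, their depth and their tissue make-up.

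**Figure D4:**
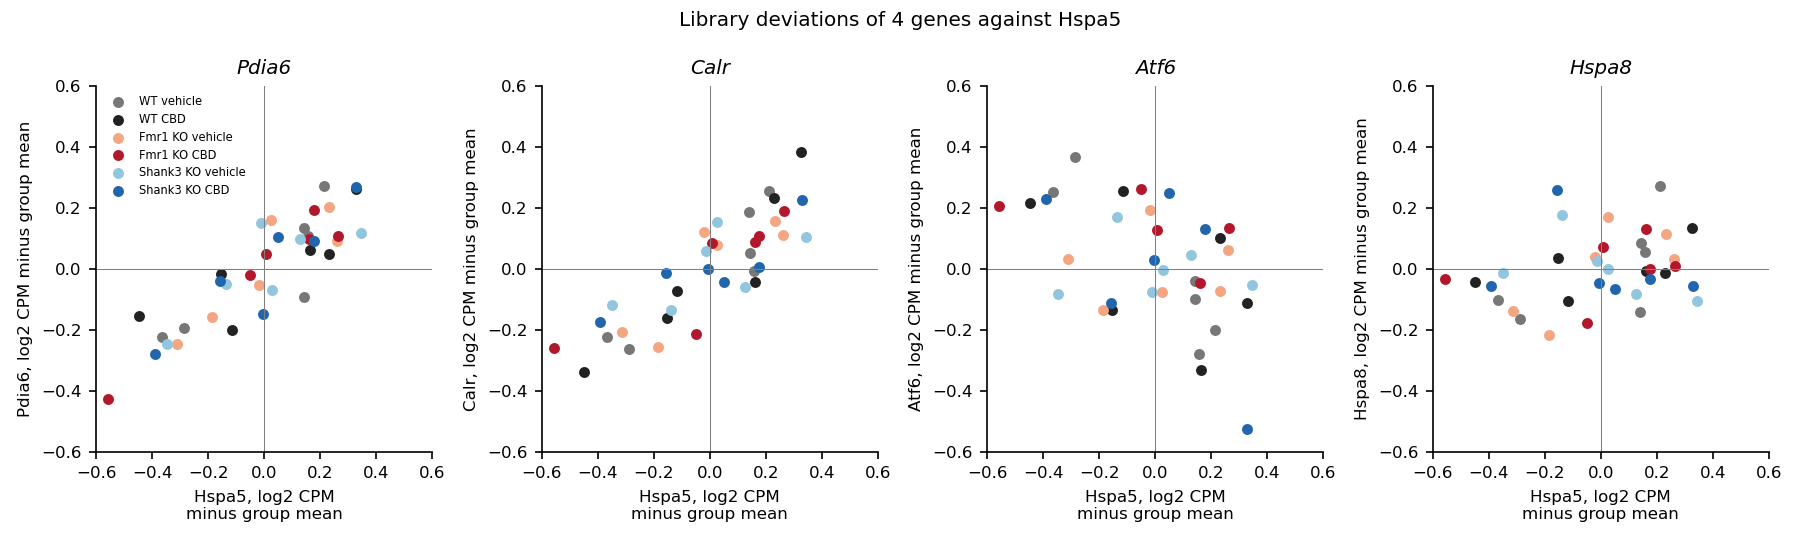
Deviation of log2 CPM from the group mean in each of the 36 libraries for Pdia6, Calr, Atf6 and Hspa8 (y axes) against that of Hspa5 (x axes), 1 point per library coloured by group. Pdia6 and Calr follow Hspa5 closely (r = 0.878 and 0.847), Atf6 runs the other way (r = -0.478) and Hspa8 only loosely with it (r = 0.276).

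Hspa5, Pdia6, Pdia3, Calr, Manf, Pdia4 and Hsp90b1 formed the closest group, chosen here after their values were seen, with a median r of 0.751 over 21 pairs and a range from 0.611 to 0.878. The animals at either end of this pattern came from several groups. Each library's mean deviation over the 7 genes, here taken from the mean of all 36 libraries, was lowest in Fmr1 KO vehicle replicate 2 at -0.33 on the log2 scale, Fmr1 KO CBD replicate 4 at -0.30 and WT CBD replicate 4 at -0.28. It was highest in WT CBD replicate 1 at 0.26, Shank3 KO vehicle replicate 5 at 0.23 and WT vehicle replicate 4 at 0.21. In these libraries Hspa5 was at 95.9, 90, 94.6, 162, 169 and 156 CPM, in that order. The 3 lowest were females and the 3 highest males, and with group and sex both removed the 21 pairs had a median r of 0.783, from 0.596 to 0.906. The group means ran from -0.08 in Fmr1 KO vehicle to 0.05 in WT vehicle, a narrower span than that between animals. The choroid plexus score was correlated with Hspa5 at r = 0.485 (rho = 0.419, adjusted p = 0.0735), with Pdia3 at 0.593 and with Pdia4 at 0.606. Whether tissue from beside the hippocampus contributes to the shared pattern was not tested beyond the values within the low and the high libraries.

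Of the 7 genes with the ER stress element shown above, 4 are among these closest 7 (Hspa5, Hsp90b1, Pdia6 and Calr) and 3 are not (Canx, Dnajc3 and Creld2). Among the 7 carriers, the 6 besides Hspa5 had a median r with it of 0.718, from 0.0813 for Creld2 to 0.878 for Pdia6. The 15 ER genes whose promoter held no match had a median of 0.351, from -0.287 for Ern1 to 0.850 for Pdia3. The 3 with no promoter at hand, Manf, Hyou1 and Atf6, had a median of 0.693, from -0.478 to 0.842. The ranges overlap, since Pdia3 and Pdia4 lack the exact letters in the window and Creld2 and Dnajc3 carry them. No test was made of this difference.

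Not every member of the response followed BiP. The sensor Atf6 was correlated with Hspa5 at -0.478 (rho = -0.421, adjusted p = 0.0588), with Canx at -0.586 and with Dnajb1 at -0.594. Its closest genes were Ppp3ca at 0.953 and Tle1 at 0.940, and its highest marker correlation was with the 10 dentate markers at r = 0.818 (rho = 0.802, adjusted p = 0.00117, 0.785 without the 2 farthest libraries). Ern1 was closest among the 44 to Atf6, at 0.740. In an older annotation Atf6 spans 163098 bases with 9231 in exons, and Ern1 93203 with 8173. Hspa5 spans 5578 bases with 4229 in exons. Counts may include introns, and the part of intron reads in these correlations was not tested. Atf4 and its target Ddit3 were correlated at 0.308 (rho = 0.236, adjusted p = 0.206), with 0.728 in the libraries low and 0.219 in those high in choroid plexus markers. Hspa5 and Hspa8 were at 0.276 (rho = 0.296, adjusted p = 0.277), with 0.621 and 0.150 in the same sets. The ER gene Xbp1 and the cytosolic J protein gene Dnajb1 were at 0.826, the highest value across compartments. The lowest of the 946 values was that of Hyou1 and Chordc1, -0.653 (rho = -0.559, adjusted p = 0.00199, -0.561 without the 2 farthest libraries). With group and sex both removed their r was -0.525.

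In the cytosol, Hspa8 and its exchange factor Hsph1 were each other's closest genes at r = 0.805 (rho = 0.771, adjusted p = 0.000338). The value was 0.897 and 0.713 in the libraries low and high in choroid plexus markers. Their J protein Dnaja1 was at 0.678 with Hspa8 and 0.698 with Hsph1, but it ranked only 35th for Hspa8 among all genes and was closer to Hspd1, at 0.715. Stip1 was at 0.638 with Hspa8 and 0.611 with Hsph1, and Hspd1 at 0.588 and 0.644. These pairs were picked out after their values were seen. Hspa4 and Ahsa1 were at 0.809, and Hsp90ab1 and Ahsa1 at 0.785, and the gene closest to Hspa4 was the chaperonin gene Cct7, that closest to Ahsa1 the chaperonin gene Cct2. The HSP90 pair did not move together: Hsp90aa1 and Hsp90ab1 were at -0.0801 (adjusted p = 0.779). Hsp90aa1 was closest to Atp5j at 0.919 and Cycs at 0.916, genes of the respiratory chain and ATP synthase, and Hsp90ab1 to Pebp1 at 0.913 and Tubb2a at 0.896. Hspd1 and Hspe1, whose promoter region is shared and whose annotated spans overlap by 112 bases, were at 0.591. Hspa1a and Hspa1b were at 0.174 (adjusted p = 0.559), and Hsf1 and Hspa8 at -0.412 (adjusted p = 0.0600). The median was 0.184 over the 171 pairs within the cytosolic and mitochondrial set and 0.140 over the 475 pairs between the sets.

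**Figure D5:**
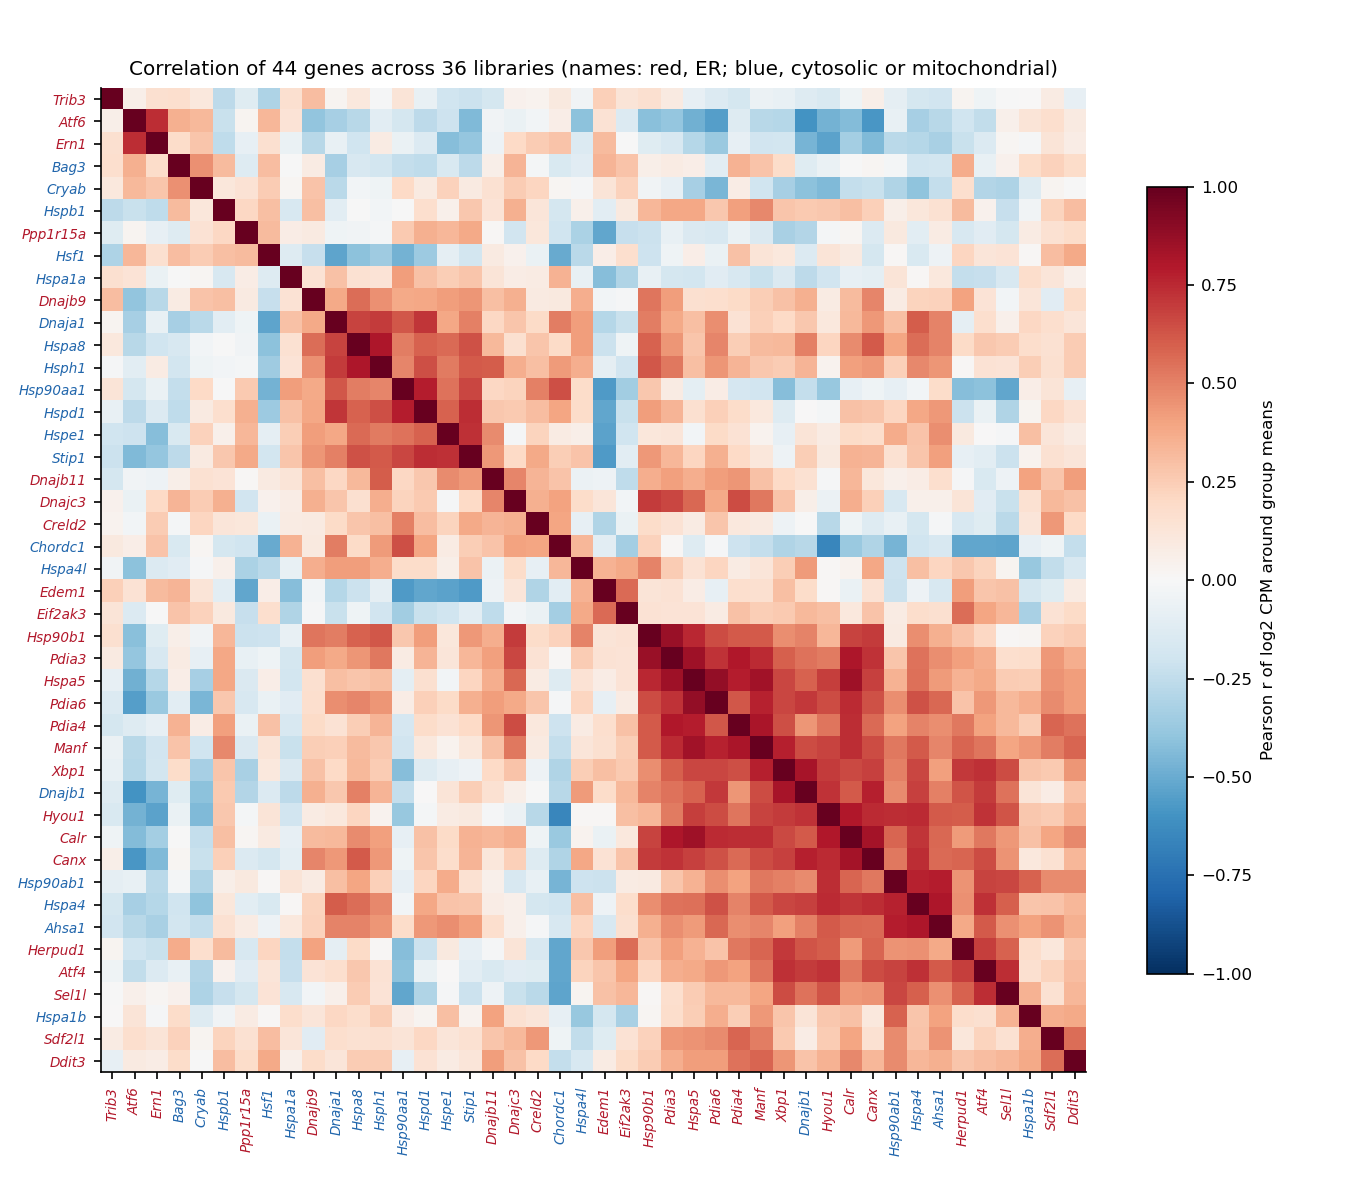
Pearson r of the deviations from group means over 36 libraries for every pair of the 44 genes (both axes, ordered by clustering on r), on a colour scale from -1 to 1. Hsp90b1, Pdia3, Hspa5, Pdia6, Pdia4 and Manf lie side by side, and Calr lies beyond Xbp1, Dnajb1 and Hyou1. The median r is 0.751 over the 21 pairs of Calr and these 6 neighbours. Dnaja1, Hspa8 and Hsph1 adjoin (0.678 to 0.805), as do Hsp90ab1, Hspa4 and Ahsa1 (0.772 to 0.809).

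Several genes followed marker lists of cell types and regions. Cryab, which oligodendrocytes are known to express, was correlated with 10 oligodendrocyte markers at r = 0.797 (rho = 0.787, adjusted p = 0.00117), and its 5 closest genes were Ppp1r14a, Gltp, Itgb4, Gsn and Bcas1, at 0.860 to 0.868. Dnajc3 was correlated with the choroid plexus markers at 0.746, Bag3 with the CA3 markers at 0.705 (0.487 without the 2 farthest libraries) and Hspb1 with the markers of meningeal fibroblasts at 0.607. Atf4 was correlated with the astrocyte markers at 0.793 and Hsp90ab1 with those of microglia at 0.781. Of 704 pairs of a gene and a marker list, 56 had an adjusted permutation p under 0.05, 13 of them negative. How often other genes reach this with the same lists was not computed. This count therefore does not show a link to cell types or regions particular to the genes followed here. A correlation in whole tissue does not show in which cells a gene is expressed.

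Gene overlaps limit some values, because the sources used here give no strand setting for the counting. In an older annotation, 79.5% of the span of Manf lies over Dcaf1 on the other strand, which had 8457 counts in all, and 75.0% of Hspa1a over a predicted gene with 0. Ddit3 shares 53.0% of its span with a second identifier of the same symbol on the same strand, which had 0 counts. It also shares 68 bases with the neighbouring Mars, so the level of Ddit3 is uncertain. Cryab shares 19.4% of its span with Hspb2, which had 33 counts in all. Reads in these stretches cannot be told apart between the partners.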

How the data were processed

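RNA from the hippocampus of 36 mice was sequenced in bulk. Per the submitters' processing notes, FastQC, STAR 2.7.11b and featureCounts 2.0.8 were used on build GRCm39, and DESeq2 and edgeR are named. The sources used here give no annotation release, strand setting or read filter. The authors deposited a table of raw counts per gene identifier with the length of each gene, and a sheet with the sex of each animal. Totals of 11655697 to 33228089 counts per library set the precision. Every per-sample column of the table was used.

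Groups came from the labels. Genes were filtered with filterByExpr, which left 21172 holding 99.9% of all counts, scaled by TMM and tested with edgeR 4.0.16 (quasi-likelihood, 1 model of the 6 groups with a sex term over all 36 libraries, Benjamini-Hochberg adjustment over all genes tested) in R 4.3.3. Effects by sex came from a model of the 12 sets of group and sex (22326 genes). DESeq2 1.42.0, limma 3.58.1 (voom with sample quality weights), RLE scaling, other filters, no sex term, the compared groups alone and the removal of each library were the alternatives. Log2 CPM used a prior count of 1. Correlations used deviations from group means with 100000 permutations within groups, although the planned design gave none a p. The split by choroid plexus score and the removal of libraries rich in striatal markers were chosen after seeing the data. The scripts were tested on simulated data.

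The genes, the lists and the tests were chosen with earlier results of these data known. Beside 8 anchor genes (Hspa5, Xbp1, Atf4, Ddit3, Hspa1a, Hspa8, Hsp90aa1 and Hsf1), each comparison names the 3 genes of either compartment with the smallest p. The labels do not say how animals were housed or handled, so p-values measure only the spread between these libraries.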

Additional observations from a re-analysis of the deposited data

Results flagged for a closer look

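Single libraries stood far from the other 5 of their group, by Dixon's criterion at the 95% level, in 17 of 264 sets of 1 gene in 1 group, where chance gives about 1 in 20. All values are in CPM, and no explanation was tested for any of them.

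WT CBD replicate 1 was highest in its group for Hyou1 at 133 against 76.2 to 95.5, for Xbp1 at 49.8 against 32.4 to 37.5 and for Sdf2l1 at 5.16 against 2.71 to 3.34. WT CBD replicate 4 was lowest for Hsp90b1 at 88.0 against 108 to 117. In WT vehicle, Hspa1a stood at 1.90 in replicate 1 against 1.16 to 1.37, Trib3 at 0.564 in replicate 6 against 0.213 to 0.325, and Cryab at 39.1 in replicate 5 against 22.6 to 26.2.

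Fmr1 KO CBD replicate 5 was highest for Ddit3 at 8.21 against 6 to 6.63 and for Sel1l at 240.0 against 177 to 196, and replicate 3 was lowest for Ern1 at 22.9 against 26.9 to 28.2.

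Shank3 KO vehicle replicate 2 was highest for Hsph1 at 95.1 against 83.0 to 85.6 and for Chordc1 at 108 against 80.9 to 88.2, and replicate 1 for Herpud1 at 28.7 against 22.7 to 24.6. Shank3 KO CBD replicate 2 was highest for Hspa8 at 917 against 731 to 748 and for Stip1 at 29.0 against 22.5 to 24.7. Replicate 6 of that group was highest for Hyou1 at 131 against 74.0 to 94.1 and for Dnajb1 at 37.7 against 19.6 to 25.7.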

How the results depend on the processing

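The number of the 44 genes called was 0 in all 14 comparisons with DESeq2, limma voom, RLE scaling, a stricter and no filter on low counts, the removal of each of the 36 libraries, and the removal of the 7 libraries rich in striatal markers. It was also 0 with no sex term in the 10 comparisons of the model with that term, and with the compared groups alone in 9 of these, all but the mean over genotypes. With a replicate block in place of sex it was 0 in the same 10. The labels do not say what a replicate number marks: over 90 pairs of same-numbered libraries the median correlation of deviations was -0.00 (-0.55 to 0.55), 36 of the 90 were over 0.1, and 11 of 36 libraries were closest to a library of their own number, so the numbers were not taken to pair the samples.

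In Fmr1 KO against WT under vehicle, the ER median of -0.09 stayed between -0.14 and -0.04 when 1 library was left out, and the other median of -0.07 between -0.12 and -0.02. For CBD in Fmr1 KO, the ER median of 0.07 turned to -0.0060 with limma voom and the other stayed between 0.05 and 0.11. Medians near 0 turned sign often, in 44 of 504 fits without 1 library for the ER genes and 67 of 504 for the others. Depth limits Trib3 most, and with 6 animals a group the intervals of Hspb1, Cryab and the inducible HSP70 genes reached past 1.5-fold in one or more comparisons.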
